A study of Mus musculus with 28 samples.

Results

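Megakaryocyte-erythroid progenitors (MEP) were compared with common myeloid progenitors (CMP), the cells from which they are held to arise, over every gene that the microarray measured. The comparison took every array titled MEP and every array titled CMP, which gave 3 MEP and 4 CMP arrays, 7 of the 28 arrays of the series. Both populations were sorted from mouse bone marrow. Both were gated as negative for lineage markers and Sca-1 and positive for Kit. The MEP gate was negative for the Fc gamma receptor (FCR) and for CD34, whereas the CMP arrays were titled FCR+ and CD34low. About 10000 sorted cells gave each RNA, and about 50 ng of total RNA was turned into biotinylated target. The other arrays of the same experiment included 5 of stem-cell-enriched cells (HSC: lineage-, Sca-1+, Kit+) and 4 of granulocyte-macrophage progenitors (GMP: FCR+, CD34high). The remaining 6 were of leukaemic cells titled L-GMP. The levels of these groups are given below only beside the MEP and CMP values, but their spread enters the gene tests. Another 6 arrays, of transduced cells, belong to a second experiment that the design text calls noncomparable, and they were not used. The strain, age and sex of the mice, and whether the replicates came from separate animals, are not given in the sources used here. The p-values of the gene tests below therefore measure the spread between arrays within the 5 sorted groups (22 arrays), not a known spread between animals.

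In the standard scheme of blood formation, a CMP divides into a granulocyte-macrophage branch and a megakaryocyte-erythroid branch. GATA1, with its partners FOG1 (Zfpm1), TAL1, LDB1 and LMO2, drives red cell and platelet genes, and KLF1 adds the red cell program of haem synthesis and membrane proteins. PU.1 (Spi1) and C/EBP alpha (Cebpa) drive the granulocyte and monocyte program and are known to oppose GATA1. Erythropoietin, acting through its receptor Epor, keeps later red cell precursors alive.

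A level is the log2 of the scaled array intensity throughout. Values below a floor of 5.27 on that scale were set to it. A gene was called when limma's moderated test, adjusted by Benjamini-Hochberg over all genes, gave an adjusted p under 0.05. The test pooled the spread within the 5 sorted groups, 22 arrays in all. Rhag, Sphk1, Col5a1 and Klf1 were at the floor on every HSC, GMP and L-GMP array. Ermap was at the floor on all of these but GMP replicate 1. Gfi1b was at the floor on every GMP and L-GMP array, Ces2g on every L-GMP array and Epor on every GMP array. Such ties add no spread, so the p-values of these and similar genes may be too small. Of 8422 genes tested, 1436 were called (17.1%), of which 521 were higher in MEP (6.19% of all genes tested) and 915 were lower (10.9%). Called changes of at least 2-fold numbered 124 upward (1.47%) and 329 downward (3.91%), 453 in all (5.38%). The median log2 change over all genes was 0.02. The MEP and CMP arrays did not overlap for 2127 of the 8422 genes, called or not. Every MEP array was above every CMP array for 927 genes and below for 1200. A gene was tested only if above the median intensity of the experiment on at least 3 of the 22 arrays, and 121 genes met this only with the MEP arrays. Of these, 47 were among the 521 called higher, and for genes so admitted the filter itself favoured high MEP levels. Ermap, Rhag, Tspo2, Rhd, Kel, Epor, Sphk1, Col5a1, Ces2g, Gadd45a, Gadd45g, Gp5, Slamf1 and Vwf, all described below, were admitted in this way. The upward count depended on scaling and on the arrays used. Without scaling, 307 genes were higher and 1069 lower, so that 22.3% of calls were upward against 36.3% with scaling, while the median log2 change of all genes moved to -0.07. Without MEP replicate 3 there were 326 upward and 657 downward calls. Leaving out any other single array gave 362 to 525 upward calls. No call reversed its sign among the calls shared with any of the 22 other settings tried.

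**Figure D1:**
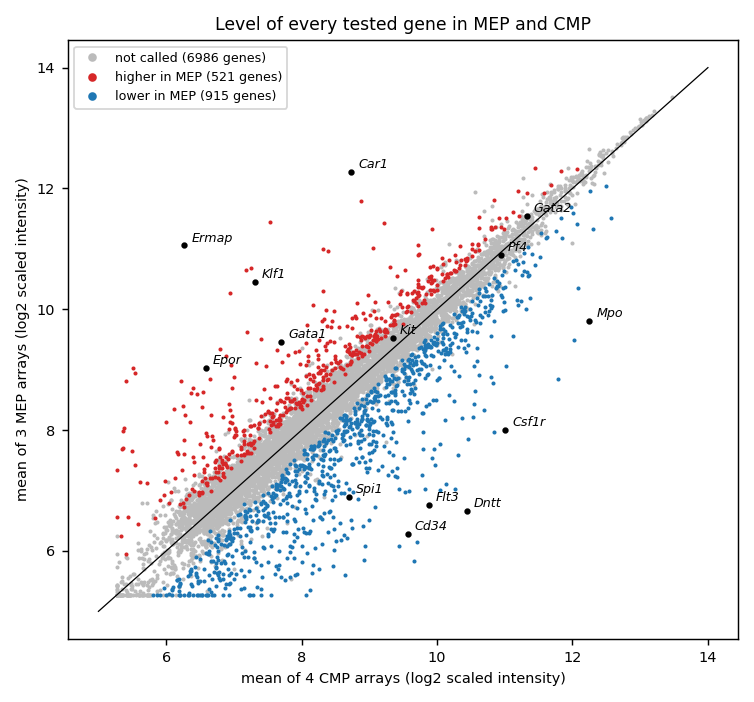
Mean level of every tested gene in the 4 CMP arrays (horizontal axis, log2 scaled intensity) and the 3 MEP arrays (vertical axis, same unit), coloured by call, with the diagonal marking equal levels. Car1, Ermap and Klf1 lie far above the diagonal, Mpo, Csf1r, Dntt and Cd34 far below it, and Kit, Gata2 and Pf4 close to it.

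The 2 groups of arrays were separate, but neither was uniform. Correlations over all tested genes were 0.959 to 0.982 between CMP arrays, 0.943 to 0.975 between MEP arrays and 0.872 to 0.936 between a CMP and a MEP array. CMP replicate 4 was the highest CMP array for 288 of the 521 genes called higher in MEP (55.3%). MEP replicate 3 was the lowest MEP array for 616 of the 915 genes called lower (67.3%) and the highest for 303 of the 521 called higher (58.2%). The deviations of these arrays from their group means correlated at 0.53 across genes. Leaving out both arrays left 951 calls, 325 upward and 626 downward. Control probe sets at the 3′ and 5′ ends of Actb and Gapdh, which differ more where RNA or target is short, gave a mean log2 difference of 3.10 ± 0.10 (SD, n = 3) in MEP and 2.996 ± 0.058 (SD, n = 4) in CMP (exact permutation test over 35 splits, two-sided p = 0.171; smallest possible 0.0286).

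The genes of the sort gates were examined first, since they define the cells. Cd34, the sialomucin that marks early progenitors, read 9.74, 9.81, 9.50 and 9.22 on the CMP arrays and 6.86, 6.65 and 5.32 on the MEP arrays. The groups did not overlap, and Cd34 was 9.77-fold lower in MEP (limma, adjusted p = 2.81e-08). The gates select on CD34 and FCR, so falls of their genes were favoured by the sort and their p-values are no independent support. Its level in CMP was not below that of the GMP arrays, whose title calls the gate CD34high: it averaged 9.57 ± 0.26 (SD, n = 4) in CMP and 8.94 ± 0.14 (SD, n = 4) in GMP. Kit, the stem cell factor receptor that both gates selected, read 9.53, 9.40, 9.22 and 9.24 in CMP and 9.76, 9.60 and 9.23 in MEP and was not called (log2 change 0.18 ± 0.15, adjusted p = 0.495). Fcgr3, which encodes one of the 2 Fc gamma receptors that the antibody of this gate usually binds, read 5.72, 5.27, 5.61 and 5.27 in CMP. That is at or near the floor, although the title calls these cells FCR+, and all 3 MEP arrays were at the floor. GMP averaged 9.51 ± 0.35 (SD, n = 4). Fcgr2b, which encodes the inhibitory Fc gamma receptor, was 3.09-fold lower in MEP (adjusted p = 7.47e-06), with 8.57, 8.70, 8.69 and 8.36 in CMP against 6.89, 7.52 and 6.45 in MEP. Of the 7 sort marker genes listed, 5 were tested and 2 were called, both lower (40%, against 10.9% of all genes). In arrays of sorted bulk cells, fewer cells of a type and less RNA per cell cannot be told apart, and this applies to every gene below.

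The largest increases in MEP were genes of the red cell lineage together with metallothioneins, a lipid kinase, a collagen and transporters. Ermap, an erythroid membrane adhesion protein, read 6.38, 5.27, 5.27 and 8.15 in CMP, with replicates 2 and 3 at the floor, and 10.99, 11.004 and 11.17 in MEP. It was 27.6-fold higher (log2 change 4.79 ± 0.41, adjusted p = 2.43e-08), the largest increase of any gene, and 42.7-fold higher without CMP replicate 4. Car1, carbonic anhydrase of red cells, read 9.21, 8.03, 7.39 and 10.31 in CMP and 12.02, 12.24 and 12.56 in MEP, an 11.6-fold increase (adjusted p = 5.68e-06). In CMP it spanned almost 3 log2 units, with replicates 1 and 4 high, whereas the MEP arrays lay close together. Rhag, the Rh-associated glycoprotein, was at the floor on 3 CMP arrays and at 6.32 on CMP replicate 4, against 9.06, 8.52 and 9.26 in MEP (10.6-fold, adjusted p = 6.34e-11). Blvrb, the biliverdin reductase of red cells, was 10.8-fold higher, and Slc40a1, the iron exporter ferroportin, 9.98-fold higher.

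Among the other leading genes, the metallothionein Mt2 read 7.31, 7.18, 7.11 and 8.53 in CMP and 11.15, 11.07 and 12.13 in MEP (15.1-fold, adjusted p = 1.24e-08), and Mt1 was 7.53-fold higher. Metallothioneins bind zinc and copper. These genes parted in the other populations: GMP averaged 11.05 ± 0.12 (SD, n = 4) for Mt1, nearer to MEP than to CMP, but 7.40 ± 0.16 for Mt2, close to CMP. Sphk1, which makes sphingosine 1-phosphate, was at the floor on 3 CMP arrays and on every HSC and GMP array, and read 8.55, 8.22 and 9.65 in MEP (10.5-fold, adjusted p = 2.16e-10). Ces2g, a carboxylesterase, rose 11.1-fold and Abcb4, a phospholipid transporter, 6.41-fold. Abcb4 was 7.34 ± 0.13 (SD, n = 5) in HSC and 6.43 ± 0.18 (SD, n = 4) in GMP, below all 7 arrays compared here. Col5a1, a fibrillar collagen chain, was 11.4-fold higher on the probe set tested. With no filter on low values the brighter of its probe sets took its place and gave a log2 change of -0.27 (adjusted p = 0.487), so its increase rests on 1 probe set.

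The largest decreases were genes of granulocytes, monocytes, lymphoid-primed cells and early progenitors. Chdh, a mitochondrial choline dehydrogenase, read 9.36, 9.72, 9.75 and 9.82 in CMP and 6.36, 5.88 and 5.27 in MEP, where replicate 3 was at the floor (14.2-fold lower, adjusted p = 6.34e-11). Dntt, the terminal transferase that adds bases to rearranging antigen receptor genes, read 10.14, 10.43, 10.35 and 10.82 in CMP and 7.49, 6.86 and 5.64 in MEP (13.7-fold lower, adjusted p = 3.76e-09). Both were picked among genes whose groups do not overlap, and in both the lowest array was MEP replicate 3. Dntt averaged 11.21 ± 0.13 (SD, n = 5) in HSC and 5.47 ± 0.39 (SD, n = 4) in GMP, whose mean was below every MEP array. Chdh differed, with 10.81 ± 0.10 in GMP, above all CMP arrays. F13a1, coagulation factor XIII of monocytes and platelets, fell 11.8-fold, and 18.8-fold without MEP replicate 2. Ly86, the partner of an innate immune receptor, fell 10.2-fold, Emb (embigin) 9.39-fold and Anxa3 8.43-fold. Adgrl4, an adhesion receptor, fell 8.22-fold, or 4.85-fold without MEP replicate 3, and Bex6 fell 8.1-fold.

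**Figure D2:**
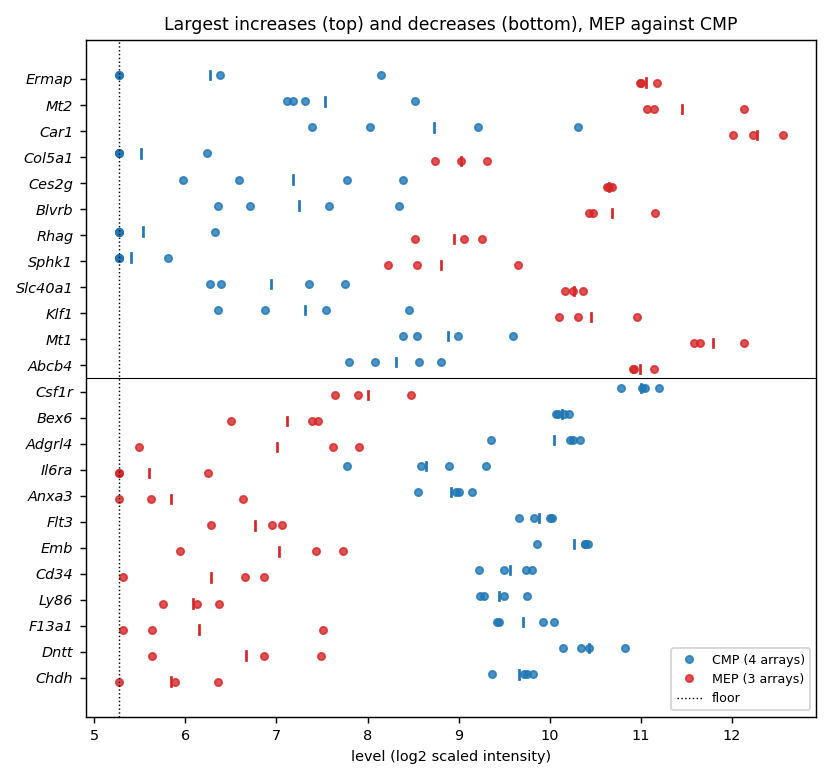
Level on each array (horizontal axis, log2 scaled intensity) of the 12 largest called increases and the 12 largest called decreases whose groups do not overlap, with CMP arrays in blue, MEP arrays in red, short bars for group means and a dotted line for the floor. Except for Sphk1, the upper genes have a larger SD over the CMP than over the MEP arrays. Ermap reads 5.27 to 8.15 in CMP and 10.99 to 11.17 in MEP. Except for Il6ra, the lower genes have a larger SD over the MEP arrays, where Dntt reads 5.64 to 7.49.

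The starts of 4 genes that rose and of 2 that fell are printed to show the letters that blood transcription factors are known to bind. They were chosen after their levels and matches were seen, and each is taken from the 250 bases before the transcript start listed for the gene in RefSeq (GRCm38.p6), 5′ to 3′ on the gene's strand. The listed start of Ermap lies inside the annotated span of the gene, so its last 18 bases, which other transcripts may hold, are not shown. Capitals mark matches on either strand. One GATA element searched was AGATAA, which reads TTATCT on the opposite strand. The other GATA element was TGATAA, whose opposite strand shows TTATCA. The core of the CACC box that KLF factors bind was CCACCC, with GGGTGG opposite, and the PU box bound by PU.1 was GAGGAAGT, with ACTTCCTC opposite. None of these motifs overlapped another in the windows shown. Klf1 lies at chr8:84901732-84901981 (plus strand), Ermap at chr4:119190014-119190245 (minus strand), Epor at chr9:21963577-21963826 (minus strand) and Gfi1b at chr2:28621983-28622232 (minus strand). The granule protease gene Prtn3 lies at chr10:79879417-79879666 (plus strand) and Mpo at chr11:87793534-87793783 (plus strand).
Klf1: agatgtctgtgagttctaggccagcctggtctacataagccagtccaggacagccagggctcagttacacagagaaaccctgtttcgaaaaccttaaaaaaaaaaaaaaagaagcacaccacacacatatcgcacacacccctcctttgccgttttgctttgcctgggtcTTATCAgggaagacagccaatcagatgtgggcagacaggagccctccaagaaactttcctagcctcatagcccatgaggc
Ermap: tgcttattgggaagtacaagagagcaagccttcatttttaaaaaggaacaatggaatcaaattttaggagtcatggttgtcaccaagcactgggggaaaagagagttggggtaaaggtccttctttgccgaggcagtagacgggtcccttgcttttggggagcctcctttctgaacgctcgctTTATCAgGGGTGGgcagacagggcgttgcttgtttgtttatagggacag
Epor: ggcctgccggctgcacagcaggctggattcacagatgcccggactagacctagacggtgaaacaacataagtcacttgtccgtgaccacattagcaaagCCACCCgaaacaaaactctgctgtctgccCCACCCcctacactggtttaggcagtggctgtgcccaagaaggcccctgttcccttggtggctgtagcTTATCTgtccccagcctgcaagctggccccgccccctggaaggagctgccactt
Gfi1b: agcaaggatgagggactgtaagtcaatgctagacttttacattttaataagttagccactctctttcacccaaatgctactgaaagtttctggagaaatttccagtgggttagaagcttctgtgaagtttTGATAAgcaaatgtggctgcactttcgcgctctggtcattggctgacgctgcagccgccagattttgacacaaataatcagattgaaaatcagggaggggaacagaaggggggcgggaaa
Prtn3: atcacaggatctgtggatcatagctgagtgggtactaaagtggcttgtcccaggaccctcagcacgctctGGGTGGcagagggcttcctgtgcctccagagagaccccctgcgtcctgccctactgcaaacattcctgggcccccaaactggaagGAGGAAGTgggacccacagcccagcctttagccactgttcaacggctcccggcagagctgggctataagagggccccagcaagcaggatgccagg
Mpo: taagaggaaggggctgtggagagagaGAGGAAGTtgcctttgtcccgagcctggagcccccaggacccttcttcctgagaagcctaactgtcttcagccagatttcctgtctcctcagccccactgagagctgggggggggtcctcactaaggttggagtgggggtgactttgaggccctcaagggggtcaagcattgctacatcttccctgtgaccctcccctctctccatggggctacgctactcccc

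A GATA element began 80 bases before the listed start of Klf1, 67 before that of Ermap, 54 before that of Epor and 120 before that of Gfi1b. It lay on the antisense strand in the first 3 and on the sense strand in Gfi1b. In Ermap a CACC core began 60 bases before the start, next to the GATA element. The PU box began 95 bases before the start of Prtn3 and 224 before that of Mpo. Of all 32851 such windows in the table, 16.6% held either GATA element, 28.1% held CCACCC and 2.44% held the PU box. Windows were listed for 6851 of the 8422 tested genes, and 9.73% of these windows held a GATA element. The share was 20.9% for genes called at least 2-fold higher in MEP (29 of 139 windows, from 109 of 124 genes). It was 10.2% for those called at least 2-fold lower (37 of 361 windows, from 264 of 329 genes). Several windows of a gene were counted separately. Of the leading increases with a window, Klf1, Ermap, Rhag, Ces2g and Sphk1 held a GATA element, and Mt1, Mt2, Blvrb, Abcb4 and Col5a1 did not. Of the leading decreases, only Dntt and Il6ra did. CCACCC was in 42.4% of the windows of the higher genes and 37.1% of those of the lower, against 32.9% for tested genes, and the PU box in 0.719% and 2.77% against 2.13%. These shares are descriptions of letters before listed starts, some of which lie inside a longer transcript of the gene, without a test, and no binding was measured.

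The transcription factors of the branch moved in both directions. Of 30 erythroid and megakaryocyte factors listed, 28 had a probe set of their own and 25 were tested. Of these 8 rose (32%, against 6.19% of all genes) and 3 fell (12%, against 10.9%). The median log2 change was 0.15, against 0.02 for all genes. Klf1 read 7.55, 6.88, 6.36 and 8.45 in CMP and 10.11, 10.31 and 10.96 in MEP (8.87-fold higher, adjusted p = 8.58e-08), and was at the floor on every HSC and GMP array. Gata1 read 8.16, 7.57, 7.17 and 7.87 in CMP and 9.36, 9.51 and 9.52 in MEP (3.42-fold, adjusted p = 4.59e-06). Gfi1b, a repressor needed for red cells and platelets, read 8.33, 7.83, 7.92 and 8.26 in CMP and 9.76, 9.78 and 9.69 in MEP (3.16-fold, adjusted p = 1.33e-07) and the floor in each of the 4 GMP arrays. All MEP arrays stood above all CMP arrays for these 3 genes, and the MEP arrays of Gata1 and Gfi1b lay close together. The GATA1 partners rose by less: Ldb1 1.9-fold, Zfpm1 1.76-fold and Tal1 1.61-fold. Bcl11a, a repressor of fetal globin genes, rose 1.57-fold and Stat5a, which acts below the erythropoietin receptor, 1.32-fold, although Stat5a was not called without scaling.

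Gata2, which precedes Gata1 in blood progenitors, read 11.26, 11.07, 11.40 and 11.56 in CMP and 11.34, 11.61 and 11.70 in MEP, and was not called (log2 change 0.23 ± 0.27, adjusted p = 0.657). The factors that fell were Fli1, Runx1 and Lyl1. Fli1, an ETS factor of the platelet lineage, read 8.73, 8.84, 8.55 and 7.43 in CMP and 6.88, 6.30 and 5.77 in MEP (4.21-fold lower, adjusted p = 6.18e-05), and CMP replicate 4 was its lowest CMP array. Lyl1, a relative of Tal1, fell 1.81-fold. Runx1 fell 1.91-fold (adjusted p = 0.0215) with overlapping groups, and was not called without MEP replicate 3 (adjusted p = 0.232), CMP replicate 2 (0.0654) or CMP replicate 3 (0.0633). Of its 4 kept probe sets, 2 were called lower.

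**Figure D3:**
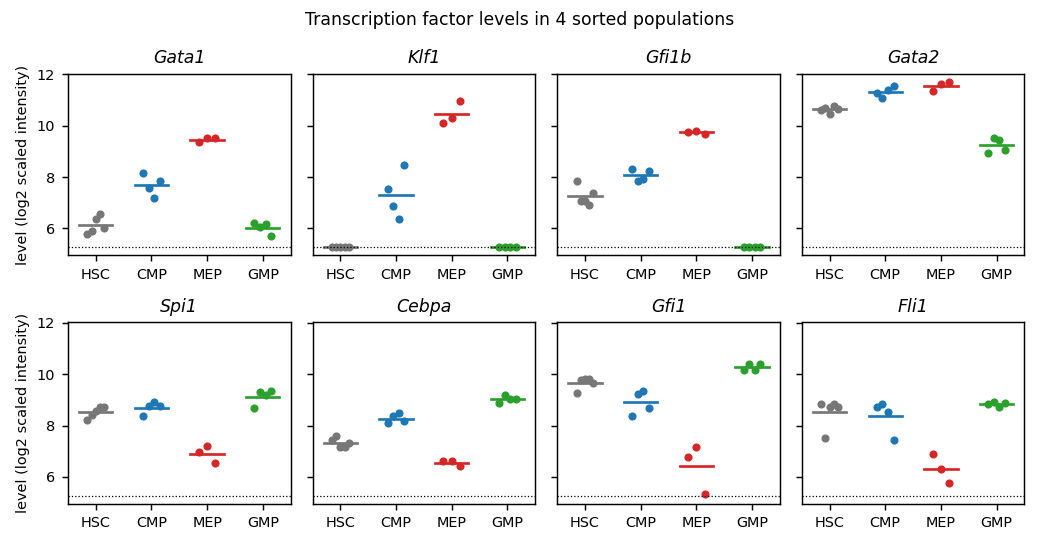
Level (vertical axis, log2 scaled intensity) of 8 transcription factors on each array of 4 sorted populations, with horizontal bars for group means and a dotted line for the floor. Klf1 is at the floor in HSC and GMP and averages 10.46 in MEP. Spi1, Cebpa, Gfi1 and Fli1 have their lowest group mean in MEP.

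Epor was the largest increase among the cytokine receptors. It read 7.03, 6.43, 5.79 and 7.09 in CMP and 8.84, 8.93 and 9.34 in MEP, with no overlap (5.48-fold higher, log2 change 2.45 ± 0.21, adjusted p = 3.73e-08). In GMP, all 4 arrays read the floor. Most other receptors fell: of 37 listed, 34 had their own probe set and 28 were tested. Of these 2 rose (7.14%, against 6.19% of all genes) and 15 fell (53.6%, against 10.9%), with a median log2 change of -0.63. The other one that rose was Ifngr1, a chain of the interferon gamma receptor (2.21-fold, adjusted p = 2.59e-05). Flt3, the receptor of lymphoid and dendritic precursors, read 9.82, 10.01, 10.03 and 9.66 in CMP and 6.96, 7.06 and 6.29 in MEP (8.65-fold lower, adjusted p = 6.81e-07). Csf1r, the receptor for the macrophage growth factor M-CSF, read 10.78, 11.01, 11.04 and 11.20 in CMP and 7.65, 8.47 and 7.89 in MEP (8.01-fold lower, adjusted p = 2.50e-09). For Csf1r, 2 of 3 kept probe sets were called lower. Il6ra fell 8.24-fold, with MEP replicates 1 and 3 at the floor. Csf3r, the receptor for the granulocyte growth factor G-CSF, fell 3.83-fold. The activin receptor Acvr1b fell 3.89-fold, Cxcr4 2.73-fold and Il3ra 1.84-fold, the last not called with the floor at the 50th percentile of intensities.

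Nearly all called genes of haem synthesis and iron handling rose, with the housekeeping enzyme of the first step as the exception. Of 30 listed, 25 had their own probe set and 23 were tested. Of these 11 rose (47.8%, against 6.19% of all genes) and 1 fell (4.35%, against 10.9%), with a median log2 change of 0.49. Alad, the second enzyme of the pathway, read 8.53, 8.32, 8.17 and 8.46 in CMP and 9.73, 9.45 and 9.99 in MEP (2.56-fold, adjusted p = 2.44e-07). Urod rose 2.06-fold and Cpox 3.73-fold, both enzymes of the middle steps, and Fech, which inserts the iron, 1.42-fold, although Fech was not called without CMP replicate 4 and MEP replicate 3 together. Cpox spread widely in CMP, from 7.45 to 9.20. Alas1, the housekeeping form of the first enzyme, read 8.63, 8.39, 8.22 and 8.36 in CMP and 7.16, 7.41 and 7.60 in MEP and fell 2.01-fold (adjusted p = 1.00e-04). Its level in GMP, 10.95 ± 0.33 (SD, n = 4), was the highest of the normal populations. Alas2, the erythroid form, read 6.85, 6.99, 7.03 and 6.85 in CMP and 7.07, 7.14 and 7.22 in MEP. It was not called (log2 change 0.21 ± 0.14, adjusted p = 0.37). Every MEP array was above every CMP array for Alas2. The same held for 927 of the 8422 genes tested, so it is no sign of a rise by itself.

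For iron, Tfr2 read 8.85, 8.96, 9.11 and 8.99 in CMP and 10.29, 10.05 and 10.36 in MEP (2.38-fold higher, adjusted p = 1.50e-05). Steap3, which reduces iron after uptake, rose 2.39-fold. Aco1, which senses iron, rose 1.73-fold and Abcb10, a mitochondrial transporter of haem-making cells, 1.72-fold. Tfrc, the transferrin receptor, rose 1.47-fold (adjusted p = 0.0215) from 10.63, 10.67, 10.87 and 11.04 to 11.19, 11.18 and 11.71. Its call was lost without MEP replicate 3 (adjusted p = 0.182), CMP replicate 1 (0.0636) or CMP replicate 2 (0.0628).

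Several genes of the red cell surface rose, whereas no tested globin gene was called. Of 43 globin and red cell membrane genes listed, 35 had their own probe set and 26 were tested. Of these 11 rose (42.3%, against 6.19% of all genes), none fell (limma, none at an unadjusted p under 0.05 either) and 15 were not called. The median log2 change was 0.50. Ermap, Rhag, Tspo2, Rhd, Kel and Slc14a1, of which the first 5 rose, passed the filter on low values only with the MEP arrays. Among the other 20 tested genes, 6 rose. Without MEP replicate 2, or without MEP replicate 3, 7 rose, as Rhag and Tspo2 were then not tested and Ank1 and Prdx2 not called. After Ermap, Car1 and Rhag came Tspo2, a membrane protein of red cell precursors, which read 6.70, 5.93, 5.67 and 6.56 in CMP and 8.76, 8.79 and 8.87 in MEP (6.02-fold, adjusted p = 6.25e-09). The water channel Aqp1 read 8.86, 8.19, 7.76 and 8.75 in CMP and 10.77, 10.86 and 11.27 in MEP (5.98-fold, adjusted p = 2.33e-08). Both were low in HSC and GMP, where Aqp1 averaged 5.70 ± 0.34 (SD, n = 5) and 5.36 ± 0.17 (SD, n = 4). Aqp9, a glycerol channel, rose 5.85-fold. The blood group genes Rhd and Kel rose 4.42-fold and 3.68-fold, and Icam4, an adhesion molecule of the red cell surface, 2.14-fold. Adult alpha globin, Hba-a1, read 7.08, 7.04, 6.99 and 7.17 in CMP and 7.04, 6.81 and 6.99 in MEP and was not called (log2 change -0.12 ± 0.16, adjusted p = 0.692). The alpha globin genes are near-identical copies, so the probe set may read more than 1 of them. The other tested globin genes, Hbb-b2, Hbb-y and Hba-x, were not called either (limma, adjusted p = 0.658, 0.868 and 0.446).

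Genes of the megakaryocyte side of the branch moved in both directions. Of 40 megakaryocyte and platelet genes listed, 31 had their own probe set and 20 were tested. Of these 2 rose (10%, against 6.19% of all genes) and 5 fell (25%, against 10.9%), with a median log2 change of -0.12. Itga2b, the integrin chain CD41, read 10.98, 10.82, 10.93 and 11.32 in CMP and 10.58, 10.91 and 10.36 in MEP and was not called (adjusted p = 0.331). Pf4, a platelet granule chemokine, read 11.11, 10.39, 9.90 and 12.36 in CMP and 10.76, 10.70 and 11.25 in MEP and was not called (log2 change -0.04 ± 0.56, adjusted p = 0.981). Vwf, the carrier of factor VIII, read 6.08, 5.65, 5.27 and 8.94 in CMP and 7.34, 7.01 and 7.38 in MEP and was not called either (adjusted p = 0.371). CMP replicate 4 was the highest of all 7 arrays for Itga2b, Pf4 and Vwf. Its mean level over the 20 tested genes was 9.06, against 8.28 to 8.48 on the other CMP arrays and 8.12 to 8.32 on the MEP arrays. Without it, 4 of the listed genes rose, Vwf among them (log2 change 1.58), and Pf4 had a log2 change of 0.43 (limma adjusted p = 0.664). Vwf passed the filter on low values only with the MEP arrays, and the array left out was its highest. Its call without that array is therefore no support for a rise.

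The genes of this list that rose were Gp5, a platelet glycoprotein, and F2r, a thrombin receptor. Gp5 rose 1.69-fold (adjusted p = 0.0219), but was not called without MEP replicate 2, MEP replicate 3 or CMP replicate 3 (adjusted p from 0.0589 to 0.102). F2r rose 1.37-fold (adjusted p = 0.0473) and was not called when any 1 array other than CMP replicate 4 was left out (adjusted p from 0.0545 to 0.170). Selp, the adhesion molecule P-selectin, read 8.92, 8.51, 8.86 and 8.70 in CMP and 6.52, 6.59 and 6.05 in MEP (5.14-fold lower, adjusted p = 5.52e-08). Plek, a substrate of protein kinase C in platelets, read 9.37, 9.27, 9.08 and 9.55 in CMP and 7.88, 7.92 and 7.80 in MEP (2.73-fold lower, adjusted p = 3.10e-05). For both, all MEP arrays lay below all CMP arrays. Mylk fell 2.7-fold, Nbeal2, needed for platelet granules, 1.99-fold and the adhesion protein Zyx 1.83-fold. Mylk and Nbeal2 were not called with the floor at the 50th percentile of intensities. Mylk had 2 kept probe sets, of which 1 was called lower. HSC levels of Mylk and Nbeal2, 8.51 ± 0.17 and 7.53 ± 0.16 (SD, n = 5), were above those of CMP.

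Many transcription factors of the granulocyte-macrophage branch fell. Of 30 listed, 28 had their own probe set and 21 were tested. Of these 11 fell (52.4%, against 10.9% of all genes), 1 rose (4.76%, against 6.19%) and 9 were not called, with a median log2 change of -0.57. Without CMP replicate 3, 7 fell, and without CMP replicate 4, 2 rose. Spi1 read 8.37, 8.74, 8.92 and 8.76 in CMP and 6.97, 7.19 and 6.54 in MEP (3.48-fold lower, log2 change -1.80 ± 0.18, adjusted p = 2.87e-07). Cebpa read 8.10, 8.36, 8.47 and 8.16 in CMP and 6.61, 6.63 and 6.43 in MEP (3.28-fold lower, adjusted p = 2.62e-07). Gfi1, a repressor needed for neutrophils and related to Gfi1b, read 8.36, 9.22, 9.35 and 8.70 in CMP and 6.78, 7.16 and 5.31 in MEP (5.61-fold lower, adjusted p = 1.97e-06). The groups of these 3 genes did not overlap, and MEP was the lowest of the 4 normal populations for each. Gfi1 and Gfi1b thus changed in opposite directions. Irf8, a monocyte factor, fell 3.87-fold and Cebpd 4.9-fold. Mef2c, a factor of lymphoid and myeloid progenitors, fell 2.19-fold, with MEP replicate 3 at 8.22 and the other MEP arrays at 9.87 and 9.79. The one listed factor that rose was Nfe2l2, which drives antioxidant genes, from 8.76, 8.43, 8.78 and 9.002 to 9.76, 9.69 and 10.12 (2.17-fold, adjusted p = 1.06e-05).

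Many neutrophil primary granule genes fell, the brightest of them from high CMP levels to MEP levels that were still well above the floor. Of 27 listed, 21 had their own probe set and 20 were tested. Of these 12 fell (60%, against 10.9% of all genes), 8 were not called and none rose (limma, none at an unadjusted p under 0.05). The median log2 change was -0.92. Mpo, myeloperoxidase, read 12.31, 12.39, 12.40 and 11.91 in CMP and 9.78, 10.77 and 8.88 in MEP (5.43-fold lower, adjusted p = 1.20e-05). Prtn3, proteinase 3, read 12.07, 12.01, 12.07 and 11.92 in CMP and 9.60, 10.18 and 8.70 in MEP (5.75-fold lower, adjusted p = 9.42e-09). Ctsg, cathepsin G, read 11.93, 11.79, 11.82 and 11.61 in CMP and 8.79, 9.51 and 8.23 in MEP (7.7-fold lower, adjusted p = 1.05e-05). In all 3, MEP replicate 2 was the highest MEP array and replicate 3 the lowest. Serpinb1a, an inhibitor of these proteases, fell 4.96-fold and Igsf6 5.24-fold. Elane, neutrophil elastase, read 8.36, 8.35, 8.70 and 8.84 in CMP and 7.07, 8.83 and 7.40 in MEP. It overlapped and was not called (log2 change -0.80 ± 0.63, adjusted p = 0.469), and both groups were far below the GMP level of 12.60 ± 0.24 (SD, n = 4). Of the later granule genes, 14 of 21 listed were tested, and 2 fell (14.3%), near the 10.9% called lower over all genes. These were Padi4, 4.31-fold, and Anxa1, 2-fold, the latter not called when only the 7 arrays were fitted.

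More monocyte and phagocyte genes fell than rose. Of 39 listed, 34 had their own probe set and 29 were tested. Of these 15 fell (51.7%, against 10.9% of all genes), 1 rose (3.45%, against 6.19%) and 13 were not called, with a median log2 change of -0.81. Ly86 read 9.50, 9.28, 9.23 and 9.75 in CMP and 5.76, 6.37 and 6.13 in MEP. Ms4a6c, a membrane protein of monocytes, read 10.71, 10.61, 10.65 and 10.81 in CMP and 8.20, 8.68 and 8.09 in MEP (5.17-fold lower, adjusted p = 1.45e-09). Groups were well separated for both genes. Ncf4, a subunit of the phagocyte oxidase, fell 4.57-fold and Tyrobp, the adaptor of several innate immune receptors, 4.52-fold. The gene of this list that rose was Apoe, apolipoprotein E, from 11.09, 10.80, 10.54 and 10.91 in CMP to 11.68, 11.72 and 12.04 in MEP (1.97-fold, adjusted p = 5.61e-04). Apoe averaged 8.36 ± 0.38 (SD, n = 5) in HSC and 7.85 ± 0.28 (SD, n = 4) in GMP, so it was not high in the other myeloid population. Mast cell, basophil and eosinophil genes fell in 4 of 10 tested of 21 listed (40%, against 10.9% of all genes), and 1 rose (10%, against 6.19%). Hdc, which makes histamine, fell 4.01-fold and Alox5ap, needed for leukotrienes, 2.27-fold. The basophil protease Mcpt8 read 7.09, 7.09, 7.19 and 6.37 in CMP and was at the floor on all MEP arrays, at least 3.16-fold lower (adjusted p = 6.03e-04), and not called with the floor at the 50th percentile. The granule protease Gzmb rose 2.23-fold (adjusted p = 0.0098) with overlapping groups, and was not called without MEP replicate 2 (adjusted p = 0.0574).

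**Figure D4:**
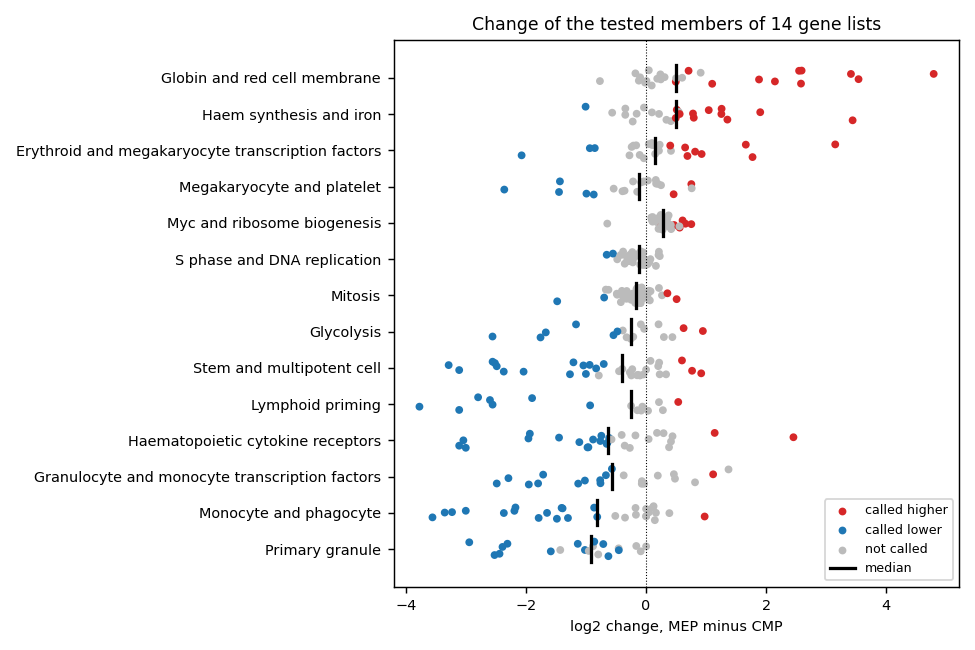
Log2 change, MEP minus CMP (horizontal axis), of each tested member of 14 gene lists, with called genes in red or blue, genes not called in grey and a black bar for each list's median. Medians run from 0.50 for globin and red cell membrane to -0.92 for primary granule, and the megakaryocyte and platelet list has its median at -0.12.

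More genes of stem and multipotent cells fell than rose. Of 42 listed, 39 had their own probe set and 33 were tested. Of these 14 fell (42.4%, against 10.9% of all genes) and 3 rose (9.09%, against 6.19%), with a median log2 change of -0.40. Cd34, a gene of the sort gates, is among those that fell. Hlf, a factor of stem cells, read 9.43, 9.51, 9.55 and 9.12 in CMP and 7.72, 7.90 and 6.47 in MEP (4.11-fold lower, adjusted p = 2.14e-06), with 11.08 ± 0.05 (SD, n = 5) in HSC. Hmga2, a chromatin protein of growing stem cells, fell 5.17-fold, and Cd27 5.72-fold. Hoxa9 fell 2.06-fold (adjusted p = 0.00283) and its partner Meis1 1.92-fold (adjusted p = 0.00426). For Hoxa9 the CMP arrays read 10.23, 10.48, 10.65 and 10.25 and the MEP arrays 9.82, 9.62 and 8.63. Neither was called when only the 7 arrays were fitted. The genes that rose included Mllt3, a chromatin reader, which lay at or just above the floor in CMP (5.44, 5.27, 5.28 and 5.33) and read 6.39, 6.36 and 5.99 in MEP (1.89-fold, adjusted p = 8.87e-05), and was not called with the floor at the 10th or the 50th percentile. Slamf1, the stem cell marker CD150 that is also used to mark early cells of this branch, read 6.86, 6.55, 6.62 and 6.90 in CMP and 7.59, 7.93 and 6.98 in MEP (1.7-fold, adjusted p = 0.00423). Cd48, another member of the SLAM family, changed the other way, 2.31-fold lower (adjusted p = 1.67e-06).

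More lymphoid priming genes fell than rose. Of 30 listed, 25 had their own probe set and 15 were tested. Of these 7 fell (46.7%, against 10.9% of all genes), 1 rose (6.67%, near 6.19%) and 7 were not called, with a median log2 change of -0.25. Flt3 and Satb1, among those that fell, are also counted in the stem and multipotent list. Without MEP replicate 3, 2 rose. Notch1, the receptor that directs T cell fate, read 9.48, 9.84, 10.06 and 9.91 in CMP and 7.28, 7.52 and 6.27 in MEP (6.95-fold lower, adjusted p = 1.37e-08). Satb1, a chromatin organiser, fell 5.88-fold, the tetraspanin Cd53 6.06-fold and the interleukin subunit Il12a 3.73-fold. The gene that rose was Tcf3, which encodes the E proteins E12 and E47 (1.45-fold, adjusted p = 0.00578).

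More glycolysis genes fell than rose. Of 22 listed, 19 had their own probe set and 17 were tested. Of these 6 fell (35.3%, against 10.9% of all genes) and 2 rose (11.8%, against 6.19%). Pkm, pyruvate kinase, read 9.34, 9.69, 9.57 and 9.51 in CMP and 6.98, 7.31 and 6.62 in MEP (5.89-fold lower, adjusted p = 1.01e-08). Pgam1, which acts 2 steps before it, read 10.31, 10.20, 10.33 and 10.14 in CMP and 8.39, 8.89 and 8.18 in MEP (3.38-fold lower, adjusted p = 1.30e-08). The groups of both genes were far apart. The glucose carrier Slc2a1 fell 3.18-fold and hexokinase 2, Hk2, 2.25-fold. Slc16a1, a lactate carrier, rose 1.92-fold (adjusted p = 0.011), but was not called without MEP replicate 3 (adjusted p = 0.113). Without that array no gene of this list rose, and without CMP replicate 1 or CMP replicate 3 1 rose.

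Genes of growth and division were called in differing shares, to be read against 6.19% called higher and 10.9% called lower over all genes. Of 42 tested genes of S phase, of 48 listed, 2 fell (4.76%) and none rose (limma; 1 at an unadjusted p under 0.05). The number that fell was 1 without MEP replicate 2 and 4 without MEP replicate 3. Ccne2, a cyclin of S phase entry, fell 1.58-fold. Of 43 tested mitosis genes of 45 listed, 2 rose and 2 fell (4.65% each), and 1 rose without MEP replicate 3, CMP replicate 2 or CMP replicate 3. Kif23, a kinesin of cytokinesis, read 9.60, 9.08, 8.91 and 9.27 in CMP and 7.66, 7.77 and 7.77 in MEP (2.79-fold lower, adjusted p = 1.17e-05), and its partner in cytokinesis Ect2 fell 1.62-fold. Cks2, a kinase subunit, rose 1.28-fold, but was not called without scaling. The cyclin Ccnd1 read 7.94, 8.07, 8.05 and 8.77 in CMP and 6.88, 6.49 and 7.14 in MEP (2.58-fold lower, adjusted p = 8.03e-05). Ribosome biogenesis and Myc target genes rose in 7 of 39 tested (17.9%) of 41 listed, with a median log2 change of 0.28 and 38 of 39 above 0. That count fell to 1 without MEP replicate 3 and to 4 without CMP replicate 3. Srm, which makes spermidine, read 10.46, 10.42, 10.43 and 10.76 in CMP and 10.83, 10.86 and 11.54 in MEP (1.47-fold, adjusted p = 0.0118), and without MEP replicate 3 it was not called (adjusted p = 0.137).

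Handling and stress genes were set apart by 1 CMP array. The mean level of the 36 tested immediate early and stress genes was 7.49 on CMP replicate 1, 9.34 to 9.47 on the other CMP arrays and 9.23 to 9.53 on the MEP arrays. Replicate 1 was also lowest in HSC (8.31, the others 9.48 to 10.42) and in GMP (7.37, the others 8.56 to 8.92). Egr1, which cells induce within minutes, read 6.37, 11.97, 12.06 and 11.88 in CMP and 11.77, 11.90 and 12.14 in MEP, and Fos read 8.33, 12.26, 12.28 and 12.18 and 11.995, 12.22 and 12.29. Neither was called (adjusted p = 0.528 and 0.53), and without CMP replicate 1 their log2 changes were -0.03 and -0.07. The listed genes that were called were Gadd45a, from 6.21, 6.64, 6.37 and 6.19 to 8.36, 8.16 and 7.87 (3.43-fold, adjusted p = 2.48e-07), and Gadd45g (2.53-fold), both of which act in growth arrest. All MEP arrays were above all CMP arrays for both genes. Gadd45a and Gadd45g were 2 of 36 tested (5.56%), near the 6.19% called higher over all genes. Both passed the filter on low values only with the MEP arrays, and Gadd45g was not tested when any 1 MEP array was left out. Gadd45a was called without each of them, and without CMP replicate 1 another gene of the list fell.

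**Figure D5:**
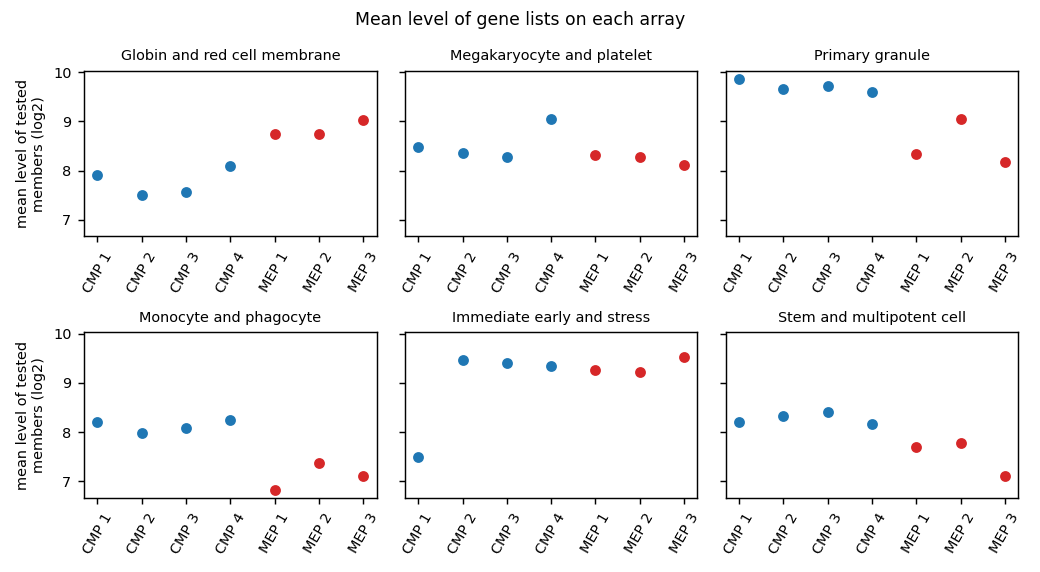
Mean level over the tested members (vertical axis, log2 scaled intensity) of 6 gene lists on each of the 4 CMP arrays (blue) and 3 MEP arrays (red). CMP replicate 4 is highest for the megakaryocyte and platelet list at 9.06, CMP replicate 1 is lowest for the immediate early and stress list at 7.49, and MEP replicate 3 is lowest for the stem and multipotent list at 7.10.

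Markers of other marrow cells were counted beside these results. T and NK cell markers had 7 tested of 18 listed and none called (limma; none at an unadjusted p under 0.05), with a summed linear intensity of 1447 to 1700 on the CMP arrays and 1369 to 1882 on the MEP arrays. Stroma and endothelium markers had 10 tested of 20 and none called (1 at an unadjusted p under 0.05), with 1861 to 2438 in CMP and 1878 to 3513 in MEP, and 1 was called higher without CMP replicate 4. B cell markers fell in 3 of 5 tested of 11 listed (60%, against 10.9% of all genes), with sums of 1860 to 2354 in CMP and 582 to 1072 in MEP. Ighm, the immunoglobulin mu heavy chain, read 10.73, 10.17, 10.16 and 10.19 in CMP and 6.50, 6.94 and 9.34 in MEP (6.59-fold lower, adjusted p = 2.07e-04). MEP replicate 3 was its highest MEP array, and without it the decrease was 12.1-fold. Cd79b fell 3.11-fold and Cd72 1.91-fold. The dendritic cell and MHC class II list had 9 tested of 16 listed, of which 4 were higher (44.4%, against 6.19% of all genes) and 2 lower (22.2%, against 10.9%). Its sums were 3259 to 4229 in CMP and 2502 to 4789 in MEP. H2-Eb1, a class II chain, read 7.11, 6.59, 6.60 and 9.002 in CMP and 8.72, 8.42 and 10.20 in MEP, where CMP replicate 4 and MEP replicate 3 were highest in their groups (3.45-fold, adjusted p = 0.0102, and 0.117 without MEP replicate 3). Without MEP replicate 3, or without any 1 of CMP replicates 1, 2 and 3, a single gene of that list was higher. H2-DMa, which loads class II molecules, fell 2.25-fold (adjusted p = 6.87e-07). The part of such cells in the changes above was not tested.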

How the data were processed

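RNA of each sorted sample was hybridised to an Affymetrix mouse array. The deposited values are linear intensities per probe set, made by the authors with MAS5, per the submitters' processing notes, where no version is given. Some values are at or below 0, and how they arose is not given in the sources used here. The 22 arrays of the sorted experiment were scaled to a common 2% trimmed mean (factors 0.923 to 1.12), floored at the 25th percentile (an intensity of 38.7, log2 5.27) and converted to log2. Fold changes of genes at the floor understate the change.

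Probe sets were kept when above the experiment's median of 107.6 on at least 3 arrays and when the platform annotation gave 1 gene, named by RefSeq. Of 22690 probe sets, 20380 had 1 gene, 691 several and 1555 none, besides 64 controls. The brightest kept probe set stood for each gene, giving 8422 genes. Among 2578 genes with several kept probe sets, none had calls in opposite directions, but for some, such as Runx1, only part of the probe sets was called. Between 1.37% and 3.29% of the tested genes were at the floor on a CMP or MEP array, and the number of arrays limits the precision.

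The model was fitted with limma 3.58.1 in R 4.3.3 (lmFit, eBayes, 5 groups, 22 arrays, contrast MEP minus CMP) and tested on simulated data. Named genes are the 12 largest called increases and the 12 largest decreases with groups that did not overlap, up to 5 called members of each of 26 lists, defining members, and any transcription factor, sort marker or cytokine receptor. The gene members and lists were chosen with earlier results of these data known. Lists share members, so their counts are not separate: Flt3 is counted as lower in the receptor, stem, lymphoid and dendritic lists. Gfi1 is in both the stem and the granulocyte factor lists, and Csf1r in both the receptor and the monocyte lists. Genes named beyond that rule were chosen after their values were seen. Other settings varied the scaling, the floor, the filter, the probe set rule, the arrays fitted, a trend, the control ratio and the replicate number. Leaving out CMP replicate 4 and MEP replicate 3 together was chosen after seeing the data.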

Additional observations from a re-analysis of the deposited data

Results flagged for a closer look

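Among the 4 CMP arrays, 16 of 154 values (128 named genes and 26 list means) had 1 array farther from the others than Dixon's 95% critical value. Chance alone passes that value in about 1 of 20 independent groups. These values share the same 4 arrays, list means hold named genes, and some genes were chosen after their values were seen. Their number can therefore not be set against that rate. CMP replicate 4 accounted for 10 of the 16 and CMP replicate 1 for 6. CMP replicate 4 was high for Mt2 (8.53, the others 7.11 to 7.31), Srm (10.76, the others 10.42 to 10.46) and Ccnd1 (8.77, the others 7.94 to 8.07). It was also high for Rhag (6.32), Col5a1 (6.24) and Sphk1 (5.81). For these 3 the other CMP arrays were tied at the floor of 5.27, so that any value above it passes. The same array was low for Emb (9.87, the others 10.39 to 10.42), Adgrl4 (9.36, the others 10.22 to 10.33), Hdc (7.17, the others 8.04 to 8.18) and Mcpt8 (6.37, the others 7.09 to 7.19).

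CMP replicate 1 was low for Egr1 (6.37, the others 11.88 to 12.06), Fos (8.33, the others 12.18 to 12.28), Il3ra (6.93, the others 7.30 to 7.36) and the mean of the immediate early and stress list (7.49, the others 9.34 to 9.47). It was high for Ighm (10.73, the others 10.16 to 10.19) and for the mean of the erythroid and megakaryocyte transcription factors (9.14, the others 9.04 to 9.05).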

How the results depend on the processing

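Under the 22 alternatives, 52 of the 117 called genes named above were tested each time and kept their direction and their side of the threshold, and 90 did so when the replicate block on 7 arrays is set aside. Under at least 1 alternative, 8 called genes (Ermap, Col5a1, Rhag, Sphk1, Tspo2, Nbeal2, Mllt3 and Gadd45g) failed the filter and were not tested. Called genes numbered 1436 and ranged from 951 to 1530, the block on 7 arrays apart, and with every probe set kept, 1942 of 12217 probe sets were called. The upward count was 307 without scaling. Without CMP replicate 4 and MEP replicate 3 there were 951 calls, 325 of them upward, and Runx1, Il3ra, Fech, Tfrc and Mef2c were not called. Without scaling, Stat5a, Tfrc, F2r and Cks2 were not called. Leaving out 1 array at a time gave 983 to 1415 calls, 326 to 525 upward, 657 to 954 downward and 368 to 486 past 2-fold, and the difference in control ratio was 0.06 to 0.16. Fitting only the 7 arrays gave 1056 calls, and Runx1, Mef2c, Hoxa9, Meis1, Slamf1, Tfrc, Gp5, F2r, Gzmb, H2-Eb1, Slc16a1, Srm and Anxa1 were not called there.

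Whether the replicate numbers pair the samples was not settled. Deviations of same-numbered CMP and MEP arrays correlated at 0.15, 0.09 and -0.35, which cannot exclude a pairing. Replicate 1 was the lowest array for the immediate early and stress list in HSC, CMP and GMP, but not in MEP. With the replicate block on 22 arrays there were 1530 calls. With the replicate block on 7 arrays there were 239, of which 95 were upward and 144 downward, and 219 past 2-fold, a fit with few residual degrees of freedom.

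Reversed log2 changes were found for Col5a1 without a filter (-0.27) and, among genes not called with all arrays, for Vwf with the floor at the 50th percentile (-0.051), for Egr1 (-0.028) and Fos (-0.071) without CMP replicate 1, and for Pf4. Pf4 changed by 0.28 with the replicate block, 0.43 with the block on 7 arrays and 0.26 without CMP replicate 4 and MEP replicate 3, and by -0.39 to 0.43 without single arrays, over which Egr1 ranged from -0.028 to 1.87 and Fos from -0.071 to 1.25. The cause was not tested. Signals near the floor give only bounds.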
